A study of Homo sapiens with 6 samples.

Results

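A set of 10 heat shock genes was followed in Huh7 cells, a human hepatocellular carcinoma line, after lentiviral overexpression of VPS72, a chromatin protein that handles the histone variant H2A.Z. They were HSPA1A, HSPA1B, HSPA8, HSP90AA1, HSPH1, DNAJB1, HSPB1, BAG3, HSPD1 and HSPE1, read from the deposited table by exact gene symbol, so 10 of the 37822 genes in it. They are chaperones and co-chaperones regulated by the transcription factor HSF1. HSPD1 and HSPE1 encode mitochondrial proteins, and the other 8 act mainly in the cytosol and nucleus. The VPS72 group was 3 libraries of Huh7 cells labelled as overexpressing VPS72. The FLAG group was 3 libraries of Huh7 cells labelled WT and given a FLAG control virus. Both groups were infected, with virus packaged in HEK293T cells left on for 24 h, and no uninfected cells were among the samples used here. Nothing in the labels says whether the replicates were separate cultures or infections, so the spread behind each p-value may be technical.

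HSF1 is held inactive by chaperones in unstressed cells. When unfolded proteins draw those chaperones away, HSF1 forms trimers and binds heat shock elements, inverted repeats of GAA and TTC, in the promoters of genes such as these. Their mRNA levels are therefore widely used as a readout of protein folding stress, and cancer cell lines often carry a raised basal level. The comparison asked whether this arm of the stress response differed in cells with raised VPS72.

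None of the 10 genes passed the test. By edgeR's quasi-likelihood test at a Benjamini-Hochberg adjusted p of 0.05 over all 14253 genes tested, 0 of 10 rose and 0 fell, where 0.617% of all genes tested changed, 0.421% higher and 0.196% lower. Over all genes this was 60 higher and 28 lower. With library size alone in place of TMM scaling 0.603% changed and the balance turned, with 0.225% higher and 0.379% lower, while again 0 of the 10 passed. With a trend with abundance removed, 29 genes were higher and 28 lower, and 0 of the 10 passed. At an unadjusted p of 0.05, 3 of the 10 passed, HSP90AA1, HSPD1 and HSPA8, where 11.5% of all genes tested did. With DESeq2 and with limma-voom 0 of 10 passed, the lowest Benjamini-Hochberg adjusted p being that of HSP90AA1, 0.102 and 0.173. All 10 genes were abundant enough to be tested. Of the log2 fold changes, 8 were positive, DNAJB1 at only 0.0007 among them, and 2 negative. Over all genes tested, 6955 were positive and 7298 negative. The median of the 10 genes was 0.07, where the median of all genes tested was -0.00. The estimates ran from -1.93% for HSPA1A to 9.88% for BAG3. The 95% intervals of the 10 estimates, not adjusted for their number, together ran from -11.4% to 22.7%. In bulk RNA, a difference in the number of cells that express a gene and one in RNA per cell cannot be told apart.

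The HSF1 binding letters are shown for the 7 genes whose RefSeq promoter (GRCh38.p14) held them, because HSF1 acts on its targets through this element. Windows of 250 bases before each annotated start were searched on both strands for GAANNTTC, for TTCNNGAA, and for the overlapping 3-unit forms GAANNTTCNNGAA and TTCNNGAANNTTC. The first and second of these read the same on either strand, and the 3-unit forms are each other's reverse complement. All 10 genes had at least 1 window, 14 in all. Capitals mark the matched bases, and each line is 30 bases, 5′ to 3′ on the strand of the gene.
HSPA1A, chr6:31815426-31815455, plus strand: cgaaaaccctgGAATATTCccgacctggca
HSPA1B, chr6:31827622-31827651, plus strand: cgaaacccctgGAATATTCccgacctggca
HSPA8, distal, chr11:123062345-123062374, minus strand: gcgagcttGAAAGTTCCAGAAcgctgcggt
HSPA8, proximal, chr11:123062170-123062199, minus strand: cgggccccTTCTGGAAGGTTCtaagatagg
HSP90AA1, chr14:102087104-102087133, minus strand: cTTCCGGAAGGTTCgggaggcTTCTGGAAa
DNAJB1, distal, chr19:14518456-14518485, minus strand: cgggcggggcgGAAGGTTCtggagggggct
DNAJB1, proximal, chr19:14518426-14518455, minus strand: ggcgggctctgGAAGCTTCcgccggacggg
HSPB1, chr7:76302480-76302509, plus strand: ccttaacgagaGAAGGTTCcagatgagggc
HSPD1, chr2:197500061-197500090, minus strand: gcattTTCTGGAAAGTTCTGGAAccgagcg

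The 3-unit form was present in HSPA8, HSP90AA1 and HSPD1, in 3 of the 14 windows. Of 34943 promoter windows of the same length, 0.441% held it. GAANNTTC was present for 7 of the 10 genes, in 7 of the 14 windows, and in 5.80% of all windows. TTCNNGAA was present for 3 of the 10 genes, in 3 of the 14 windows, and in 6.62% of all windows. BAG3, HSPE1 and HSPH1 had no match, which says only that these letters are not in these windows. The upstream windows of HSPA1A and HSPA1B were nearly the same sequence, with 235 identical bases, 14 mismatches and 2 gap bases. The HSPA8, HSP90AA1 and HSPD1 stretches overlap an exon annotated in GENCODE release 29, and the other stretches overlap none. The HSPD1 stretch overlaps annotated exons of both HSPD1 and HSPE1. It ends before the HSPE1 window, which starts at chr2:197500129, so the search of that window could not find it.

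Libraries held 23969324 to 29091824 counts in the VPS72 group and 21345279 to 25352335 in the FLAG group. VPS72 itself was at 1161 ± 11.5 CPM in VPS72 libraries against 24.0 ± 2.70 CPM in FLAG libraries (SD, n = 3 each), in the direction of the labels. CPM values are counts scaled to library size, with library sizes adjusted by the trimmed mean of M-values (TMM). All 9 hepatocyte markers were detected, summing to 20357 to 21166 CPM in VPS72 libraries and 18105 to 18839 CPM in FLAG libraries, and 6 of the 9 rose. Fibroblast markers summed to 202 to 210 CPM in VPS72 and 169 to 181 CPM in FLAG libraries, nearly all of it LUM, the proteoglycan lumican. Immune, endothelial and kidney-line markers summed to at most 14.4, 4.94 and 8.26 CPM in any library. The part of any of these in the values below was not tested.

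**Figure D1:**
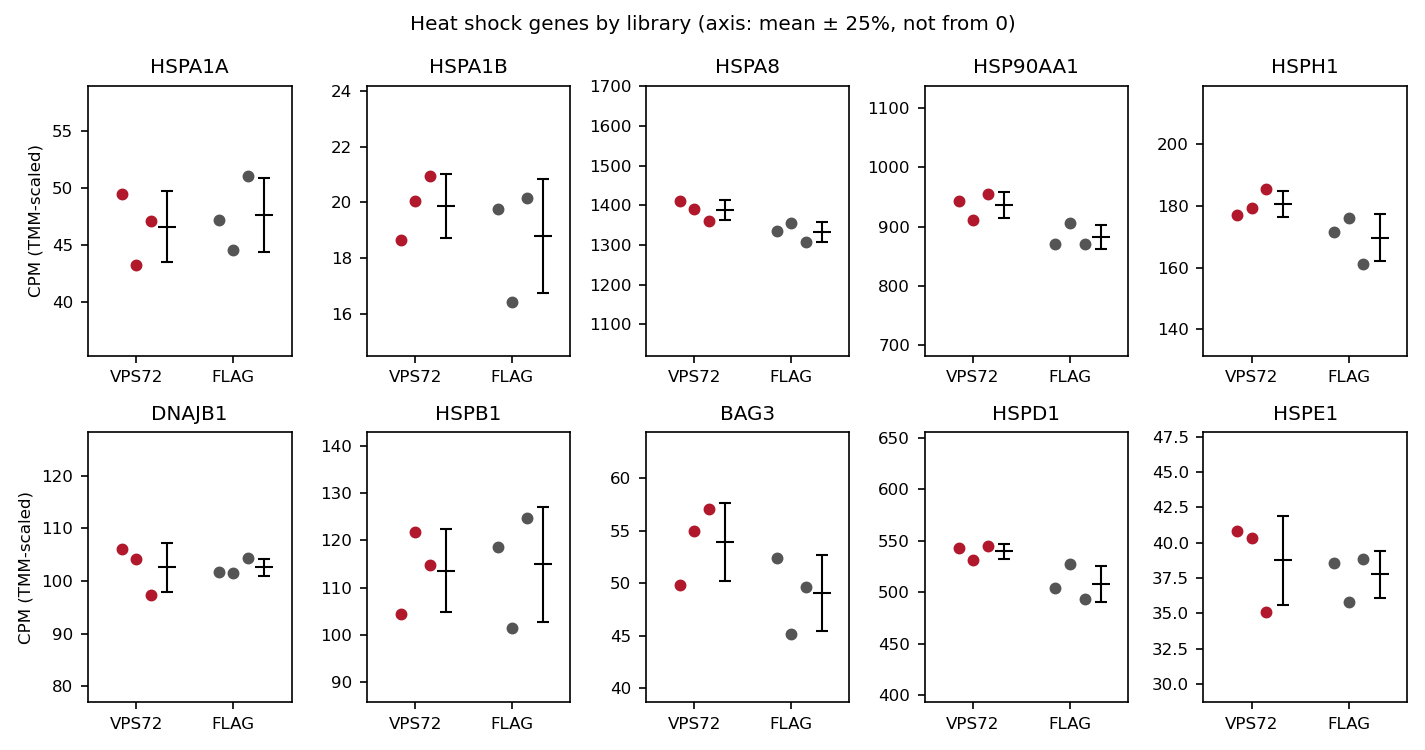
CPM of each of the 10 genes in every library, with VPS72 left and FLAG right in each panel; points are libraries and the bars beside them are mean ± SD (n = 3 each), on axes that span 25% either side of the gene's mean. In HSPA8, HSP90AA1, HSPH1 and HSPD1 the 3 VPS72 points lie above the 3 FLAG points, and in the other 6 genes the groups overlap.

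HSPA8 encodes HSC70, the constitutive cytosolic HSP70 that folds new proteins in unstressed cells. It had 1411, 1391 and 1361 CPM in VPS72 libraries 1 to 3, against 1336, 1356 and 1307 CPM in FLAG libraries 1 to 3. All 3 VPS72 values lay above all 3 FLAG values, with VPS72 replicate 3 and FLAG replicate 2 the closest. The mean was 4.12% higher in VPS72, with a 95% interval of 0.277% to 8.11%, a log2 fold change of 0.06 ± 0.03 (SE) and an edgeR Benjamini-Hochberg adjusted p = 0.388.

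HSPA1A and HSPA1B, neighbouring copies in the major histocompatibility region, encode the stress-inducible HSP70. HSPA1A had 49.4, 43.3 and 47.1 CPM in VPS72 libraries, against 47.2, 44.6 and 51.0 CPM in FLAG libraries. The groups overlapped, with the highest value in FLAG replicate 3 and the lowest in VPS72 replicate 2, and the log2 fold change was -0.03 ± 0.07 (edgeR, Benjamini-Hochberg adjusted p = 0.932). HSPA1B had 18.7, 20.0 and 20.9 CPM in VPS72 libraries, against 19.8, 16.4 and 20.1 CPM in FLAG libraries. The groups again overlapped, with FLAG replicate 2 below the other 5 libraries, and the log2 fold change was 0.08 ± 0.10 (edgeR, Benjamini-Hochberg adjusted p = 0.825).

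The copies cannot be separated firmly, since 69.9% of the 100-base windows of the HSPA1A transcript also occur in HSPA1B. HSPA1A took 72.6%, 68.4% and 69.2% of the pair's counts in VPS72 libraries, and 70.5%, 73.1% and 71.7% in FLAG libraries. The ranges of the shares overlapped (two-sided exact permutation test, p = 0.3, where 3 against 3 libraries cannot go below 0.1, so the test could not have called a difference). Added together, the pair stood at 66.5 ± 2.74 CPM in VPS72 and 66.4 ± 5.08 CPM in FLAG libraries (SD, n = 3 each). Fitted as 1 gene, the sum had a log2 fold change of 0.00, with a 95% interval of -0.12 to 0.13 (edgeR, Benjamini-Hochberg adjusted p = 0.99).

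HSPH1, DNAJB1 and BAG3 work on the HSP70 cycle. HSPH1 encodes HSP110, which releases nucleotide from HSP70 and helps dissolve aggregates, and it had 177, 179 and 186 CPM in VPS72 libraries, against 172, 176 and 161 CPM in FLAG libraries. The groups did not overlap, but the closest values, VPS72 replicate 1 and FLAG replicate 2, were 177 and 176 CPM, and the gene did not pass (log2 fold change 0.09 ± 0.04; edgeR's Benjamini-Hochberg adjusted p = 0.447). DNAJB1 encodes HSP40, which delivers clients to HSP70 and in human cells also feeds back on HSF1. It had 106, 104 and 97.4 CPM in VPS72 libraries, against 102, 102 and 104 CPM in FLAG libraries, with a 95% interval of the difference of -6.47% to 7.02%. That is the estimate closest to 0 of the 10, 0.0501% (edgeR, Benjamini-Hochberg adjusted p = 0.998).

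BAG3 links HSP70 to small heat shock proteins and to autophagic disposal of aggregates, and its transcript responds strongly to HSF1. It had 49.8, 54.9 and 57.1 CPM in VPS72 libraries, against 52.4, 45.2 and 49.6 CPM in FLAG libraries. VPS72 replicates 2 and 3 lay above every FLAG library, while replicate 1 lay among them. The mean was 53.9 ± 3.72 CPM in VPS72 and 49.1 ± 3.64 CPM in FLAG libraries (SD, n = 3 each), and the log2 fold change of 0.14 ± 0.07 did not pass (edgeR, Benjamini-Hochberg adjusted p = 0.477). Leaving out single libraries gave log2 fold changes from 0.08, without FLAG replicate 2, to 0.20, without VPS72 replicate 1. Without FLAG replicate 2 the estimates of HSPH1, HSPD1 and HSP90AA1, at 0.12, 0.12 and 0.11, were above that of BAG3.

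HSP90AA1 encodes the inducible cytosolic HSP90, which matures kinases and receptors. It had 943, 912 and 955 CPM in VPS72 libraries, against 871, 906 and 870 CPM in FLAG libraries. All 3 VPS72 values lay above the FLAG values, with VPS72 replicate 2 and FLAG replicate 2 the closest. Its log2 fold change of 0.09 ± 0.03 had the smallest p of the 10, an unadjusted p = 0.00998 and an edgeR Benjamini-Hochberg adjusted p = 0.239, at rank 596 of the 14253 genes by p. With a trend in GC content and transcript length removed from each library, an alternative added after seeing the data, its log2 fold change was 0.11 and edgeR's Benjamini-Hochberg adjusted p was 0.0316. Under that setting the median of all genes also moved up, to 0.03 against -0.0038 before, and 2.17% of genes changed, 1.81% higher and 0.358% lower. This was the only alternative run in which any of the 10 genes passed. With a trend with abundance removed instead, the log2 fold change of HSP90AA1 was 0.03, with an edgeR Benjamini-Hochberg adjusted p of 0.775, the highest of its alternatives.

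HSPB1 encodes HSP27, a small heat shock protein that holds unfolded proteins without ATP. It had 104, 122 and 115 CPM in VPS72 libraries, against 119, 101 and 125 CPM in FLAG libraries. The lowest and the highest value were both in FLAG libraries, and the coefficient of variation was 7.73% in VPS72 and 10.6% in FLAG libraries, above the 1.87% that counting error alone would give. The log2 fold change was -0.02 ± 0.07 (edgeR, Benjamini-Hochberg adjusted p = 0.965).

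HSPD1 and HSPE1 encode HSP60 and HSP10, the barrel and the lid of the mitochondrial chaperonin, and are transcribed in opposite directions from neighbouring starts. HSPD1 had 543, 532 and 545 CPM in VPS72 libraries, against 504, 527 and 493 CPM in FLAG libraries. The groups did not overlap, with FLAG replicate 2 and VPS72 replicate 2 the closest, and the log2 fold change was 0.09 ± 0.03 (edgeR, Benjamini-Hochberg adjusted p = 0.304). HSPE1 had 40.8, 40.3 and 35.1 CPM in VPS72 libraries, against 38.6, 35.8 and 38.9 CPM in FLAG libraries. VPS72 replicate 3 was the lowest of all 6 libraries, so the groups overlapped, and the log2 fold change was 0.04 ± 0.07 (edgeR, Benjamini-Hochberg adjusted p = 0.903). Leaving out single libraries gave 0.0044, without FLAG replicate 2, to 0.11, without VPS72 replicate 3.

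The ratio of HSPD1 to HSPE1 counts was 14.0 ± 1.32 in VPS72 and 13.5 ± 1.07 in FLAG libraries (SD, n = 3 each). A two-sided exact permutation test gave p = 0.5, but it cannot go below 0.1 here, so it could not have called a difference. HSPE1 is also the member most exposed to reads shared with pseudogenes, as the table lists 26 HSPE1 pseudogene rows that together hold 10.3% as many counts as the gene. For the other 9 genes this share was at most 0.526%. No source used here says whether counting was stranded, so it is not known whether reads of genes that overlap on opposite strands were told apart.

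In 4 of the 10 genes, HSPA8, HSP90AA1, HSPH1 and HSPD1, the groups did not overlap, all with VPS72 higher, and in 0 was VPS72 lower without overlap. Of all genes tested, 8.76% were higher and 8.47% lower without overlap. Differences were small in each, from 4.12% to 6.44%. HSPA8, HSP90AA1 and HSPD1 were also the most abundant of the set. Fold changes across the whole table were higher in abundant genes, with a median log2 fold change of 0.04 among the 647 genes of at least 256 CPM, against -0.03 among the 5927 genes of 2 to 32 CPM. With a smooth trend with abundance removed from each library, the median of the 10 genes was 0.04. HSPA8 turned to -0.0039, HSP90AA1 was at 0.03, HSPD1 at 0.04 and HSPH1 at 0.06, each closer to 0 than with TMM scaling alone. Among the less abundant genes, BAG3 was at 0.134 and HSPA1B at 0.103, against 0.136 and 0.082 with TMM scaling alone. Whether abundance accounts for the differences was not tested.

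**Figure D2:**
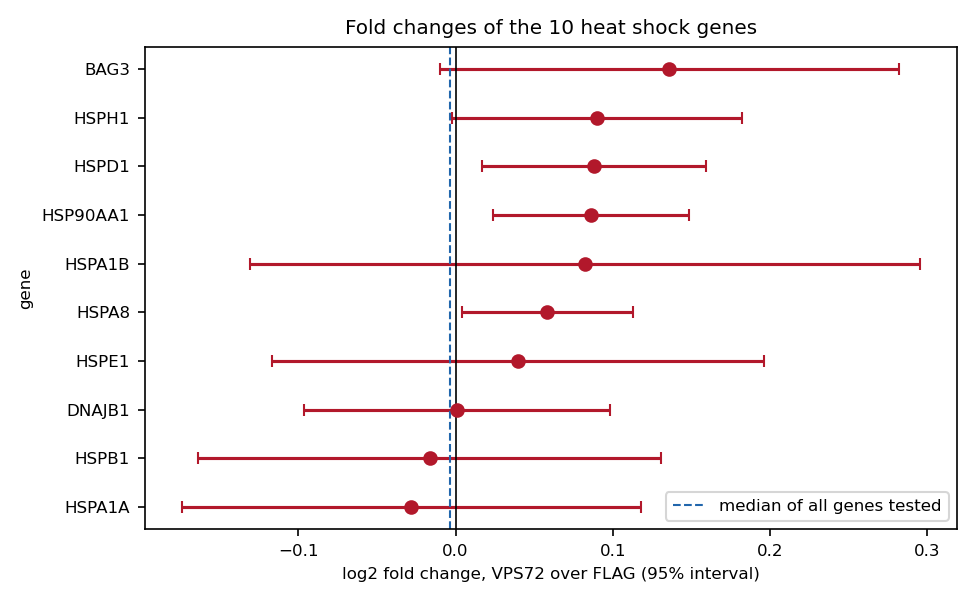
Log2 fold change of VPS72 over FLAG for each of the 10 genes from edgeR's fit over all genes (point) with its 95% interval (line), and the median of all genes tested (dashed). Intervals of HSPA8, HSP90AA1 and HSPD1 lie above 0 without adjustment, and the other 7 include it; none of the 10 passed after adjustment.

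The mean deviation of the 10 genes from their own means, on the log2 scale, was 0.02, 0.03 and 0.03 in VPS72 replicates 1 to 3 and -0.0042, -0.07 and -0.0014 in FLAG replicates 1 to 3. FLAG replicate 2 had 2 of 10 genes above their mean, where the other libraries had 5 to 9. In HSPA1B, HSPB1 and BAG3 it was the lowest of the 6 libraries, while in HSPA8, HSP90AA1, HSPH1 and HSPD1 it was the highest FLAG library. Without FLAG replicate 2 the median log2 fold change of the 10 genes was 0.04, with 6 of 10 positive. Together the 10 genes took 0.336% to 0.340% of all counts in VPS72 and 0.324% to 0.335% in FLAG libraries, without TMM scaling. HSPA8, HSP90AA1 and HSPD1 held most of these counts, so the share mainly reflects those genes.

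Per length of transcript, the order of levels was the same in both groups except at BAG3 and HSPA1A. HSPA8 stood highest, at 563 CPM per kb in VPS72 and 541 CPM per kb in FLAG libraries, rank 43 among 13969 genes with a known length. HSP90AA1 followed at 277 and 261 CPM per kb in VPS72 and FLAG libraries, HSPD1 at 220 and 207, and HSPB1 at 125 and 126. DNAJB1, HSPE1 and HSPH1 lay between 31.1 and 46.9 CPM per kb in every library. BAG3, at 21.0 in VPS72 and 19.1 CPM per kb in FLAG libraries, and HSPA1A, at 18.8 and 19.2, were the only neighbours in the order whose values overlapped across the 6 libraries.

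HSPA1B was lowest, at 7.89 CPM per kb in VPS72 and 7.45 CPM per kb in FLAG libraries, with the caution on shared reads above. Per length, the constitutive HSPA8 stood at 30.1 ± 1.99 times the inducible HSPA1A in VPS72 and 28.3 ± 2.42 times in FLAG libraries (SD, n = 3 each). The two-sided exact permutation test gave p = 0.4 and could not go below 0.1, so it could not have called a difference. HSPA1B was left out of this ratio, and the caution on shared reads holds for HSPA1A too. Against both copies added together the ratio would be lower. These levels rest on the principal transcript of GENCODE release 29, and a shorter or longer main transcript in these cells would shift a gene in the order.

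**Figure D3:**
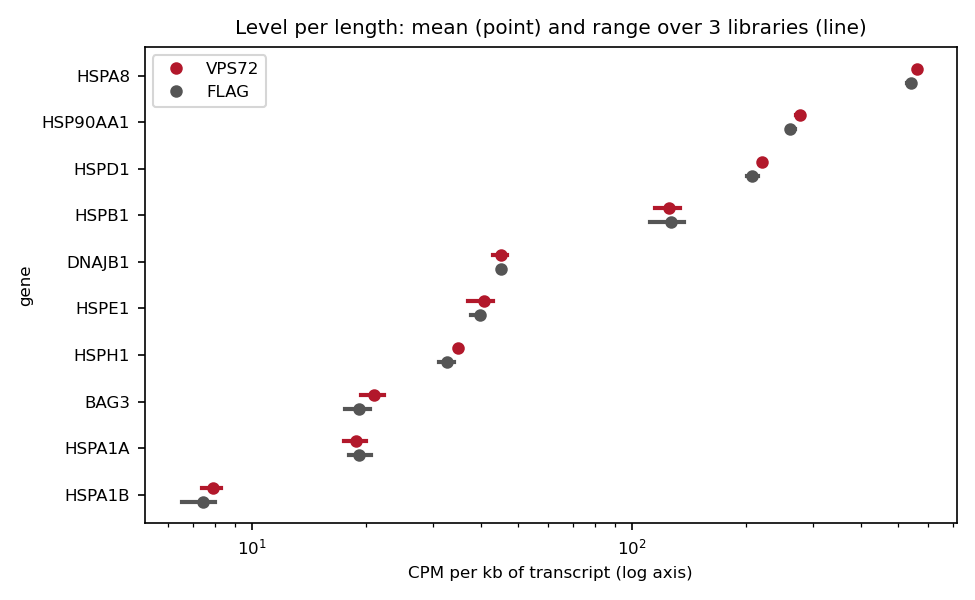
Level of each gene in CPM per kb of its principal transcript, on a log axis, as the mean (point) and the range over 3 libraries (line) in VPS72 (upper) and FLAG (lower). HSPA8 leads at 563 and 541 CPM per kb in VPS72 and FLAG libraries and HSPA1B is lowest, and the shift between groups is small beside the distance between most genes.

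The wider chaperone network gave the same count. Of 99 other genes on 9 lists, 89 were tested and 0 passed by edgeR over all genes. An unadjusted p under 0.05 was found for 8 of the 89, where 11.5% of all genes tested had one. The list counts below stand beside that same share. The groups did not overlap in 16 of the 89, where 17.2% of all genes tested had no overlap. The median log2 fold change of the 89 genes was 0.02.

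HSF1 itself, the master factor, was at 66.4 ± 1.57 CPM in VPS72 and 68.0 ± 0.63 CPM in FLAG libraries (SD, n = 3 each), a log2 fold change of -0.03 ± 0.05. HSF2, a related factor that can pair with HSF1, was at 22.5 ± 0.79 and 23.5 ± 1.23 CPM in VPS72 and FLAG libraries, a log2 fold change of -0.06 ± 0.08. HSF1 activity depends on its trimers and modification, which mRNA does not show. Of the 10 genes on the list of HSF1 and its regulators, 0 passed, 1 had an unadjusted p under 0.05, and the median was -0.00. HUWE1, a ubiquitin ligase, and EP300, an acetyltransferase, the most abundant of them, had log2 fold changes of -0.0012 ± 0.03 and -0.0071 ± 0.04. PLK1, a mitotic kinase that also phosphorylates HSF1 in human cells, is named after its values were seen. It was at 112, 112 and 105 CPM in VPS72 libraries, against 94.9, 96.0 and 98.4 CPM in FLAG libraries, with no overlap. Its log2 fold change was 0.19 ± 0.04 (edgeR, Benjamini-Hochberg adjusted p = 0.0716), and the adjusted p was 0.0115 with DESeq2 and ran from 0.00997 to 0.301 over all alternatives.

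Among HSP90 and its co-chaperones, 0 of 15 passed, 1 had an unadjusted p under 0.05, and the median was 0.06. HSP90AB1, the constitutive HSP90, had 792, 785 and 783 CPM in VPS72 libraries, against 727, 763 and 771 CPM in FLAG libraries, with no overlap and a log2 fold change of 0.06 ± 0.03 (edgeR, Benjamini-Hochberg adjusted p = 0.459). PTGES3, the p23 co-chaperone, had a log2 fold change of 0.08 ± 0.04. The gene under the unadjusted level was PPID, a cyclophilin that binds HSP90, which is named after its values were seen and was at 16.0 ± 0.71 CPM in VPS72 and 19.4 ± 0.67 CPM in FLAG libraries.

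Other HSP70 and HSP110 genes gave 0 of 6 tested past the threshold, 0 with an unadjusted p under 0.05, and a median of 0.02. HSPA4, an HSP110 family member, had a log2 fold change of 0.02 ± 0.04 and HSPA13, a microsomal HSP70 relative, of 0.10 ± 0.06. HSPA6, an HSP70 gene of human cells that is almost silent without heat shock, had 1, 1 and 10 counts in VPS72 libraries and 0, 2 and 2 counts in FLAG libraries. It was too low to be tested, and its highest count was in VPS72 replicate 3. Of J proteins, 0 of 12 passed, 1 had an unadjusted p under 0.05, and the median was 0.02. DNAJA1 and DNAJB6, both partners of cytosolic HSP70, each had a log2 fold change of 0.08 ± 0.04. The gene under the unadjusted level was DNAJC7, a J protein that binds both HSP70 and HSP90, named after its values were seen. It had 83.4, 79.3 and 83.4 CPM in VPS72 libraries, against 89.3, 88.7 and 92.8 CPM in FLAG libraries. All 3 VPS72 values lay below the FLAG values, and the log2 fold change of -0.14 ± 0.05 did not pass (edgeR, Benjamini-Hochberg adjusted p = 0.217). HSP70 exchange factors and other co-chaperones gave 0 of 9 past the threshold and 0 under the unadjusted level, with a median of 0.04, ST13, the HSP70 interacting protein, at 0.04 ± 0.04, and BAG6 at 0.02 ± 0.05.

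Small heat shock proteins other than HSPB1 were mostly silent, and 3 of 9 were tested. HSPB2, HSPB3, HSPB7, HSPB9 and CRYAA had 0 counts in all 6 libraries, which by counting error alone allows up to 3 counts, or 0.140 CPM in the smallest library. Of the rest, HSPB6 was too low to be tested. HSPB8, the partner of BAG3, had 89.4, 90.1 and 91.6 CPM in VPS72 libraries, against 95.5, 99.1 and 99.8 CPM in FLAG libraries. All 3 VPS72 values lay below the FLAG values, and the log2 fold change of -0.12 ± 0.04 did not pass (edgeR, Benjamini-Hochberg adjusted p = 0.27). HSPB11 was at 0.19 ± 0.08 and did not pass either (0.323 by the same test). CRYAB, alpha-B-crystallin, had 28, 39 and 6 counts in VPS72 libraries and 32, 43 and 11 counts in FLAG libraries, lowest in replicate 3 of both groups. Of the 3, 2 had an unadjusted p under 0.05, and the median was -0.12.

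Mitochondrial chaperones and proteases had the lowest median among the lists of at least 6 tested genes, -0.06, with 0 of 14 past the threshold and 1 under an unadjusted p of 0.05. That gene, GRPEL2, a nucleotide exchange factor of mitochondrial HSP70 named after its values were seen, had 44.3, 46.2 and 44.3 CPM in VPS72 libraries, against 54.3, 53.3 and 49.0 CPM in FLAG libraries (log2 fold change -0.22 ± 0.06; edgeR's Benjamini-Hochberg adjusted p = 0.132). HSPA9, mitochondrial HSP70 itself, had a log2 fold change of -0.05 ± 0.04 and YME1L1, an inner membrane protease, of 0.03 ± 0.04. TRiC and prefoldin, which fold actin and tubulin, gave 0 of 14 past the threshold and 0 under the unadjusted level, a median of 0.02, with CCT3 at 0.01 ± 0.03 and TCP1 at 0.03 ± 0.03.

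Of 16 tested genes known to rise on heat shock, 0 passed, 3 had an unadjusted p under 0.05, and the median was 0.06. Several of these genes, HSP90AB1, DNAJA1 and HSPB8 among them, also stand on the lists above, so this is not a separate group. HSPB8, lower in VPS72 libraries, was among the 3, as was UBB, a polyubiquitin gene named after its values were seen. UBB was at 225 ± 8.11 CPM in VPS72 and 204 ± 14.2 CPM in FLAG libraries (SD, n = 3 each), with an edgeR Benjamini-Hochberg adjusted p = 0.242. SQSTM1, the autophagy receptor p62, had a log2 fold change of 0.03 ± 0.03.

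**Figure D4:**
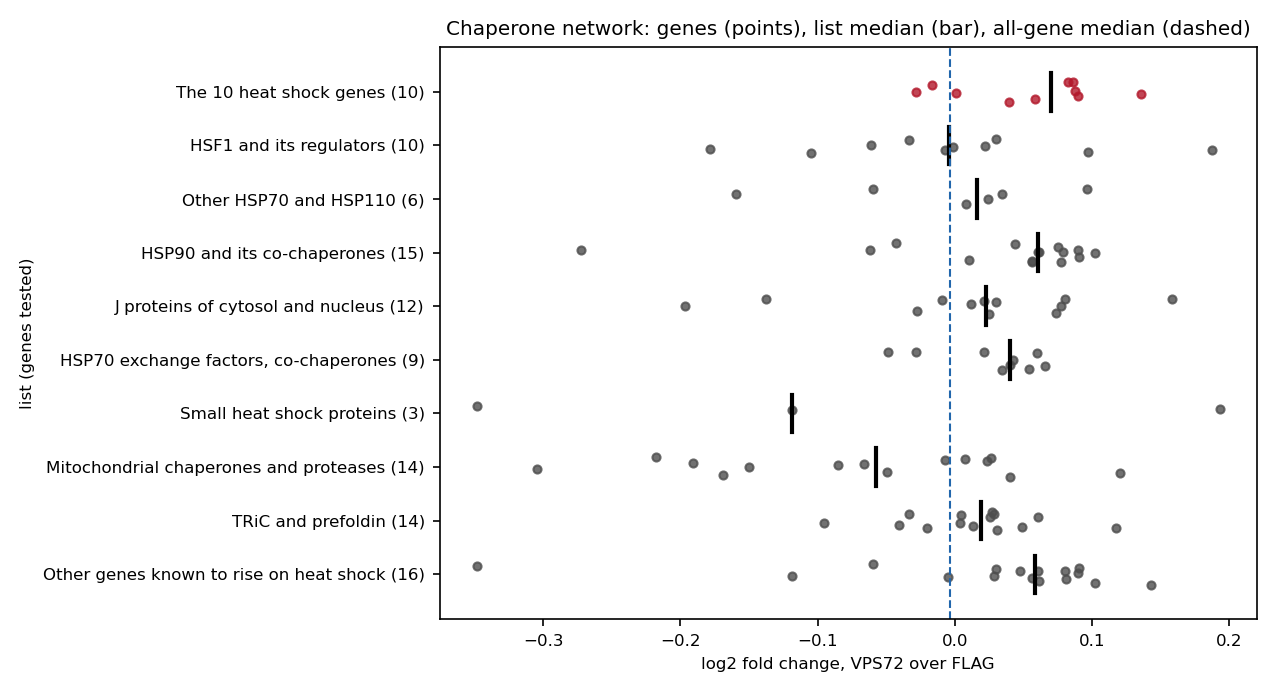
Log2 fold change of VPS72 over FLAG for the 10 heat shock genes (top) and for the tested genes of 9 chaperone lists; points are genes, black bars the list medians, and the dashed line the median of all genes tested. List medians lie from -0.12 for the small heat shock proteins to 0.06, with 0.07 for the 10 heat shock genes, and no gene shown passed the test.

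The genes outside the set whose CPM followed its mean most closely over the 6 libraries were NCALD, TMEM176B, MBOAT7, ATXN1 and SLC44A3. Pearson's r on the log2 scale ran from 0.974 for SLC44A3 to 0.988 for NCALD, the highest of 9085 genes of at least 10 CPM. None of the 5 passed the test, with log2 fold changes from 0.08 to 0.19 and edgeR Benjamini-Hochberg adjusted p from 0.423 to 0.549. With 6 libraries and this many candidates, such values describe these libraries only.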

How the data were processed

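The authors deposited estimated counts per gene symbol, as whole numbers and not normalized, with 1 column per library. STAR, RSEM and limma, and the builds hg19 and hg38, are named per the submitters' processing notes without versions or roles, so the build and annotation behind the counts are not known here. Coordinates printed are those of RefSeq promoters on GRCh38.p14. Per the labels' protocols, RNAzol was used for extraction and the KAPA RNA HyperPrep kit for the libraries.

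Genes were filtered with filterByExpr (minimum count 10, minimum total 15), which kept 14253 genes with 99.925% of the counts. VPS72 was compared with FLAG by edgeR 4.0.16 (R 4.3.3), with TMM scaling, the quasi-likelihood test and Benjamini-Hochberg adjustment over all genes tested. Standard errors are the log2 fold change divided by the square root of F, and 95% intervals use 15.46 degrees of freedom. edgeR's common dispersion gave a coefficient of variation of 7.24%. Same-group libraries differed by more than sampling noise (chi-square per degree of freedom 4.70 to 7.69).

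Named were the 10 genes, VPS72, HSF1, HSF2, up to 4 genes past the threshold or otherwise the 2 most abundant of each list, and the 5 genes most like the set. Beyond this rule, PLK1, PPID, GRPEL2, DNAJC7, UBB and the HSP70 and small heat shock genes of low or 0 counts were named after their values were seen. A further gene within the counts is not reported here. The members and lists were chosen with earlier results of these data known. Transcript lengths and GC are of the principal transcript in GENCODE release 29. Alternatives were edgeR's version of DESeq2 size factors, library size only, upper quartile, other filters, DESeq2 1.42.0, limma-voom (limma 3.58.1), a replicate block, trend removal, a threshold of 0.01 and each library left out.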

Additional observations from a re-analysis of the deposited data

How the results depend on the processing

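Of the 10 heat shock genes, 0 passed in every alternative set out at the start, each library left out included. With a GC and length trend removed, added after seeing the data, 1 passed, HSP90AA1 (0.11 on the log2 scale; edgeR, Benjamini-Hochberg adjusted p = 0.0316). Of the chaperone lists, 1 gene passed without a filter (PLK1, adjusted p = 0.0217), 1 with DESeq2 (PLK1, 0.0115) and 1 after removal of the GC and length trend (PLK1, 0.00997). Over all genes, 88 changed, against 264 without a filter, 249 with DESeq2, 57 with the abundance trend removed, 32 at a threshold of 0.01, and 309 after removal of the GC and length trend. Leaving out each library gave 25, without FLAG replicate 1, to 100, without FLAG replicate 2. Same-numbered libraries did not deviate together (correlations of -0.081, 0.004 and 0.077). Correlations of the other pairs ran from -0.141 to 0.14, so these few libraries cannot show whether the replicate numbers pair them. The replicate block leaves fewer residual degrees of freedom. With it 32 genes changed and 0 of the 10 passed, and the cause of the lower count was not tested. Library size alone moved the median of all genes to -0.04 and that of the 10 genes to 0.04, with 7 positive.

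Sign changes were among genes that did not pass. HSPA1A had -0.028 as its own row against 0.0039 for the pair's sum. Log2 fold changes turned as follows. With library size alone, DNAJB1 was -0.031, HSPA4 -0.0072, BAG6 -0.010, YME1L1 -0.0055, CCT3 -0.018, TCP1 -0.0042 and SQSTM1 -0.0017. With the abundance trend removed, HSPA8 was -0.0039, DNAJB1 -0.014, HSPA4 -0.0052, YME1L1 -0.013, CCT3 -0.027, TCP1 -0.0084 and SQSTM1 -0.025. With the GC and length trend removed, HSPA1A was 0.0057, HSPB1 0.029, HSF1 0.0094, HUWE1 0.060 and EP300 0.045. DNAJB1 was -0.0029 with a minimum count of 50, -0.0001 with the replicate block and -0.0035 with upper quartile scaling. HUWE1 was 0.0008 with DESeq2, 0.0007 with its size factors and 0.0029 without a filter. Leaving out single libraries gave ranges of -0.019 to 0.037 for DNAJB1, -0.072 to 0.027 for HSPA1A, -0.0048 to 0.13 for HSPA1B and -0.098 to 0.048 for HSPB1. The ranges were -0.012 to 0.0083 for HUWE1, -0.027 to 0.013 for EP300, -0.017 to 0.070 for BAG6 and -0.88 to 0.075 for CRYAB. The cause of these changes was not tested. At 2921 counts over 6 libraries, HSPA1B was the member with the least precision.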
